A study of Mus musculus with 8 samples.

Results

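The genes described here are the precursors of hypothalamic neuropeptides, namely Oxt, Avp, Cartpt, Pomc, Agrp, Pmch, Hcrt, Trh and Gal. They were found in the gene count table by the Ensembl identifier of each symbol, which gave 9 of 22430 genes. The table held long-read direct RNA counts (Oxford Nanopore MinION) from brain hemispheres of male C57Bl/6JRj mice without a genetic modification or treatment. The 4 young-adult mice were 6 months old (6m) and the 4 aged mice 24 months old (24m), with 1 library per mouse. The tissue was not dissected further, so each value is a level in a whole hemisphere and not in the hypothalamus.

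Neuropeptide precursors are made in the cell body, cut by convertases at pairs of basic residues inside dense-core granules, and released as short peptides that act on G protein-coupled receptors. Each precursor here is made mainly by small groups of hypothalamic neurons that control water balance, reproduction, feeding, arousal, stress and thyroid function, although Cartpt, Trh and Gal are also made in other brain regions. Oxytocin and vasopressin are released into the blood from the posterior pituitary by magnocellular neurons, and the other members act largely within the brain or on the anterior pituitary.

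Oxt and Avp are neighbours on chromosome 2 and share most of their second exon, which bears on how well reads can be assigned to each. On GRCm39, Oxt (ENSMUSG00000027301) lies on the plus strand at chr2:130418091-130418974 and Avp (ENSMUSG00000037727) on the minus strand at chr2:130422540-130424640, with 3565 bases between them. The coding bases for the 9 residues of each hormone, followed by the Gly-Lys-Arg signal at which it is cut and amidated, are in exon 1, at chr2:130418187-130418222 for Oxt and chr2:130424357-130424392 for Avp. They are shown 5′ to 3′ from the GENCODE transcripts, with the bases that differ in capitals.
Oxt peptide: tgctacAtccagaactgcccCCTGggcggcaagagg
Avp peptide: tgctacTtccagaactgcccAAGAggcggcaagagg
Of these 36 bases 5 differed. Exon 2 encodes the core of neurophysin, the carrier protein cut from each precursor, and it is shown for Oxt (chr2:130418511-130418712) and Avp (chr2:130422976-130423177) because it is where the transcripts are most alike.
Oxt exon 2: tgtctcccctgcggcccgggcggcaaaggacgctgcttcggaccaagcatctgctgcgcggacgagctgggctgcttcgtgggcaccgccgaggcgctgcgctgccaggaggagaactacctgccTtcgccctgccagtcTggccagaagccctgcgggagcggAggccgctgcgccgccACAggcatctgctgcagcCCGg
Avp exon 2: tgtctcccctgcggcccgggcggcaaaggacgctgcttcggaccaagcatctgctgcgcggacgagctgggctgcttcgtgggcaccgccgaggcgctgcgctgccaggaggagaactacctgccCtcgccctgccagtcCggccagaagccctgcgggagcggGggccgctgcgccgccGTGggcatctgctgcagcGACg
Only 9 of 202 bases differed, and the longest identical run was 125 bases. When whole transcripts were compared, the longest alignment matched at 88.0% over 301 bases. It covered 55.8% of the Oxt and 40.5% of the Avp transcript, not their full length. No transcript from another locus aligned to a member at 95% identity or more over 50% or more of the member's length. Genes that overlap a member at its own locus are given with that member.

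The ends of the Pmch and Cartpt precursors are shown as well, since these are the members with the lowest log2 fold change. In both, the pair of basic codons at the cut is in lower case and the peptide codons are in capitals. The 19 codons of melanin-concentrating hormone span exons 2 and 3 of Pmch (ENSMUSG00000035383, plus strand, chr10:87927733-87928048). The last 41 codons of Cartpt (ENSMUSG00000021647, minus strand, chr13:100035430-100036488) encode the shorter of the active CART peptides and also span exons 2 and 3.
Pmch peptide: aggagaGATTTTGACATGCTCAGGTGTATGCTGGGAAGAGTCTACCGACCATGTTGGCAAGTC
Cartpt peptide: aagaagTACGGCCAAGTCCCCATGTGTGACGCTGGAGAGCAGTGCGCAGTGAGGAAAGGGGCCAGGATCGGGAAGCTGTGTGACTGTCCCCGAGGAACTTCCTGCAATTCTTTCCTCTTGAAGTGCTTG

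Library totals ran from 573152 to 843706 counts at 6m and from 660398 to 1255424 at 24m, so that 3 counts, taken here as the count limit, stood for 2.30 to 5.42 CPM, the count scaled to the library total after correction by edgeR's TMM factors. Genes averaging more than 5 counts per library were tested with the quasi-likelihood test of edgeR, 9375 in all, with Benjamini-Hochberg adjustment over all of them. A gene was called changed where the adjusted p did not exceed 0.05 and the log2 fold change (log2FC, 24m over 6m) reached 0.58 in either direction. This held for 14.5% of tested genes, with 968 (10.3%) higher and 391 (4.17%) lower at 24m, and an adjusted p of 0.05 or less without a fold threshold was reached by 21.7%. The hypothalamus as a region was barely seen through its transcription factors: 12 of 17 such genes had 3 counts or fewer in every library, and Sim1, Tbx3 and Hmx3 had no count.

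No neuropeptide precursor of the 9 was called changed with age. Of the 8 that could be tested, 0 passed both thresholds in edgeR, against the 14.5% of all tested genes, and DESeq2 called 0 on raw or on quantile-normalized counts, whereas limma-voom called 1, Pmch. An unadjusted p under 0.05 in edgeR was reached by 3 of the 8 tested members, where 34.3% of all tested genes reached it. These members were Pmch and Cartpt, with lower values at 24m, and Avp, with higher values. The log2FC was below 0 for 5 members and above 0 for 3, with a median of -0.28, where 50.3% of all tested genes were below 0. The CPM of the ages overlapped for all 8 tested members, whereas 21.1% of all tested genes had no overlap. Agrp was at the count limit in all 8 libraries. In a hemisphere, fewer cells of a type and less RNA per cell cannot be told apart.

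**Figure D1:**
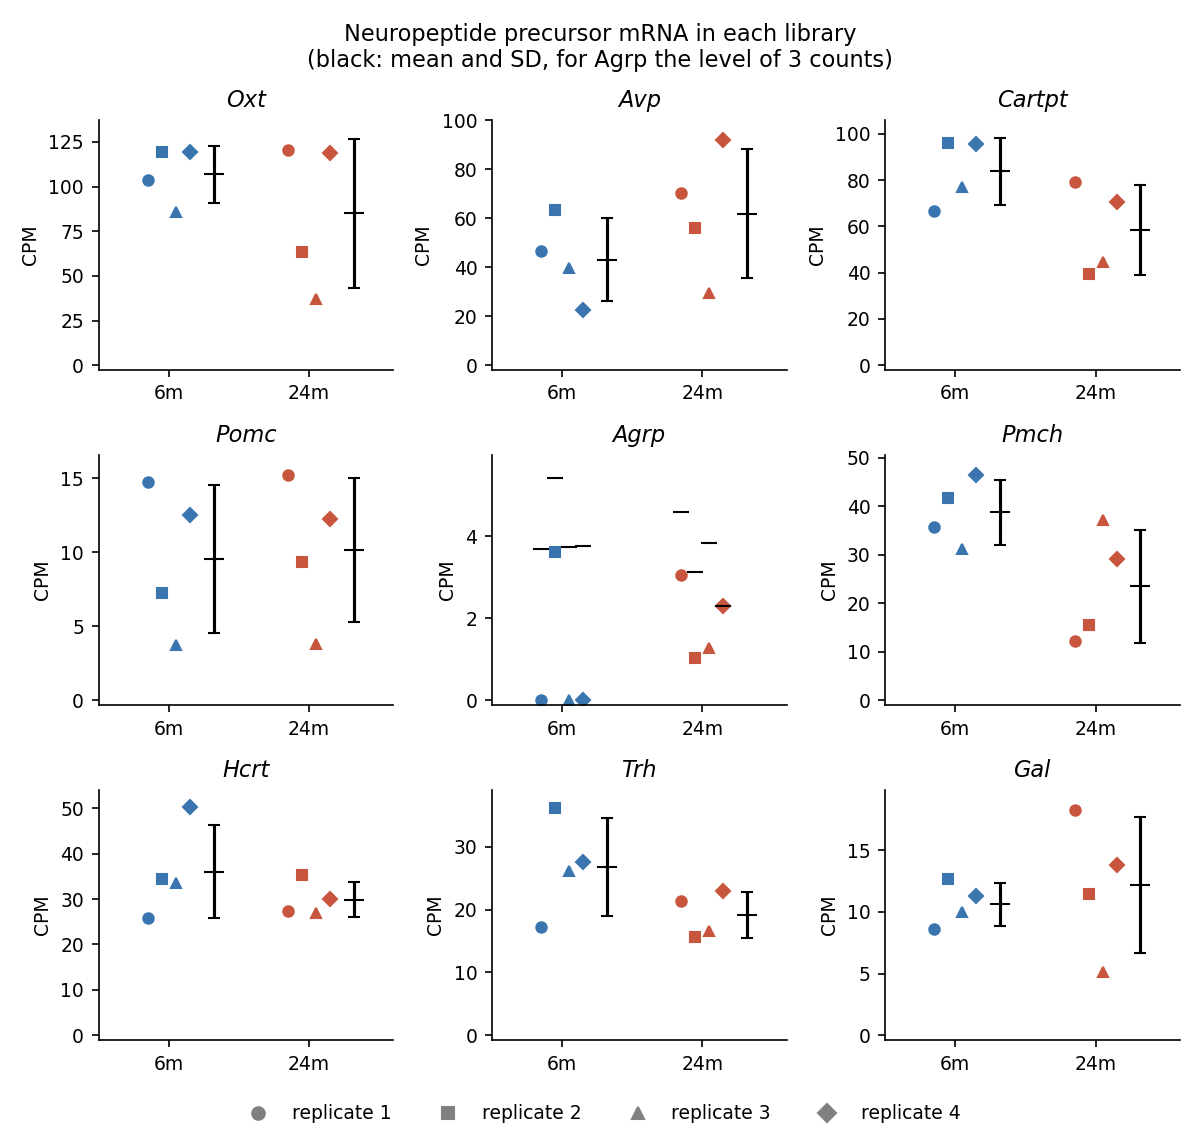
CPM (counts scaled to TMM-corrected library totals) of each neuropeptide precursor in each library, by age, with markers for replicates and black bars for the mean and SD of 4 libraries. The ages overlap in every panel, and the Agrp panel shows the level of 3 counts in each library in place of the mean, with no point above it.

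Oxt, the precursor of oxytocin, which acts in parturition, lactation and social behaviour, had the highest mean level per kilobase of transcript at both ages. Its read counts were 84, 66, 69 and 95 in 6m replicates 1 to 4 and 79, 61, 29 and 155 in 24m replicates 1 to 4. As CPM these were 103.4, 119, 85.9 and 119 at 6m against 120, 63.4, 37.1 and 119 at 24m. Replicates 1 and 4 at 24m were at the level of the highest 6m libraries, and replicates 2 and 3 were below every 6m library. The mean CPM was 107 ± 15.9 (SD, n = 4) at 6m against 85.0 ± 41.5 (SD, n = 4) at 24m. The log2FC of -0.31 (SE 0.225) had an adjusted p of 0.347 in edgeR, and its 95% interval ran from -0.77 to 0.15. It was -0.08 without 24m replicate 3 and -0.57 without 24m replicate 4.

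Avp, the precursor of vasopressin, the hormone of water retention, had the highest fitted log2FC of the members. Its counts were 38, 35, 32 and 18 at 6m and 46, 54, 23 and 120 at 24m, or 46.8, 63.3, 39.8 and 22.6 CPM against 70.1, 56.1, 29.4 and 92.0 CPM. The 24m libraries reached higher, but replicate 3 at 24m was below 3 of the 6m libraries. The mean CPM was 43.1 ± 16.9 (SD, n = 4) at 6m against 61.9 ± 26.2 (SD, n = 4) at 24m, and the exact permutation test of the CPM gave p = 0.314. In edgeR the log2FC was 0.61 (SE 0.260), with an adjusted p of 0.0965 and a 95% interval from 0.07 to 1.14. Single libraries moved it: the log2FC was 0.30 without 24m replicate 4 and 0.40 without 6m replicate 4, and Avp was called without 6m replicate 2 (0.82, edgeR adjusted p = 0.0391) or without 24m replicate 3 (0.82, edgeR adjusted p = 0.0166).

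The ratio of Avp to Oxt counts within a library separated the ages. It was 0.452, 0.530, 0.464 and 0.189 in the 6m libraries and 0.582, 0.885, 0.793 and 0.774 in the 24m libraries, with no overlap, and the lowest value, that of 6m replicate 4, stood well under the others. On the log2 scale the mean ratio went from -1.39 ± 0.68 (SD, n = 4) to -0.41 ± 0.26 (SD, n = 4), a difference of 0.98 or 1.97-fold. The two-sided exact permutation test gave p = 0.029, the smallest that 4 against 4 libraries allow. Without 6m replicate 4 the difference was 0.64, and the ages still did not overlap. The ratio was chosen after the counts were seen. Of the 28 pairs of tested members, 2 had ratios that did not overlap, both of them ratios to Oxt. Of all 9374 other tested genes, 7.47% had such a ratio to Oxt. That share is for ratios to Oxt alone, so it is not a background for all 28 pairs. How reads within the similar exon 2 were assigned is not given in the sources used here, and their part in the ratio was not tested.

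**Figure D2:**
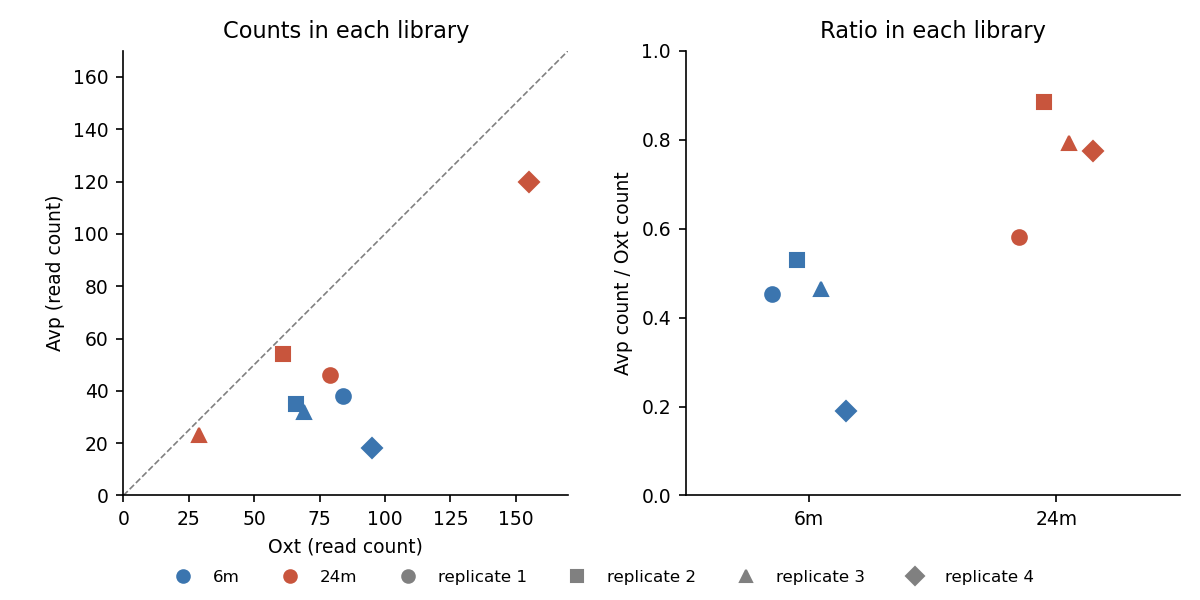
Left, Avp against Oxt read counts in each library, with a dashed line at equal counts. Right, the ratio of these counts in each library, by age, where the 6m libraries lie between 0.189 and 0.530 and the 24m libraries between 0.582 and 0.885.

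The other pair without overlap was Gal to Oxt, at 0.0833, 0.106, 0.116 and 0.0947 in the 6m libraries and 0.152, 0.180, 0.138 and 0.116 in the 24m libraries. The highest 6m library and the lowest 24m library nearly touched. The difference was 0.54 on the log2 scale, 1.46-fold, at the same smallest exact permutation p of 0.029. Both pairs have Oxt as denominator and so share its spread. The next pair in order, Trh to Avp, had an exact permutation p of 0.0571.

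Cartpt, the precursor of the CART peptides of arcuate and other neurons, which lower food intake, lies at chr13:100034990-100047006 and had a lower mean at 24m. Its counts were 54, 53, 62 and 76 at 6m and 52, 38, 35 and 92 at 24m, or 66.5, 95.8, 77.2 and 95.4 CPM against 79.3, 39.5, 44.8 and 70.6 CPM. Replicates 2 and 3 at 24m were below every 6m library, and replicates 1 and 4 were within the 6m range. For Cartpt the mean CPM was 83.7 ± 14.4 (SD, n = 4) at 6m against 58.5 ± 19.4 (SD, n = 4) at 24m. In edgeR the log2FC was -0.51 (SE 0.191), under the fold threshold, with an adjusted p of 0.0562, and the 95% interval ran from -0.90 to -0.12. It was called without 6m replicate 1 (-0.60, edgeR adjusted p = 0.0470), 24m replicate 1 (-0.63, edgeR adjusted p = 0.0123) or 24m replicate 4 (-0.65, edgeR adjusted p = 0.0248), and was closer to 0 at -0.36 without 24m replicate 2 (edgeR adjusted p = 0.226), -0.41 without 24m replicate 3 (edgeR adjusted p = 0.165) and -0.42 without 6m replicate 4 (edgeR adjusted p = 0.173).

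Cartpt is also made in the olfactory bulb, and a marker of that region, Doc2g, was lower at 24m. Doc2g had 9.85, 52.4, 62.2 and 23.9 CPM at 6m and 7.62, 4.16, 6.40 and 25.3 CPM at 24m, and fell with a log2FC of -1.54 (SE 0.443, edgeR adjusted p = 0.0148). It was the only tested gene of 5 olfactory bulb markers, and the others did not all go the same way. Mean CPM at 6m and 24m was 4.50 and 4.74 for Cdhr1 and 7.69 and 2.25 for Scgn, and Eomes and Sp8 were at the count limit. The summed markers ran from 17.2 to 83.4 CPM at 6m and from 10.4 to 39.9 CPM at 24m, and without Doc2g from 7.38 to 21.2 CPM and from 3.05 to 14.6 CPM. The lowest libraries for Doc2g, 24m replicates 2 and 3, were also the lowest for Cartpt, whereas 24m replicate 1, the next lowest for Doc2g, had the highest Cartpt level at 24m. Doc2g was no longer called without 6m replicate 3 (-1.11, edgeR adjusted p = 0.122) or 24m replicate 2 (-1.25, edgeR adjusted p = 0.0745), nor by DESeq2 or limma-voom. The part of the olfactory bulb in the Cartpt values was not tested.

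**Figure D3:**
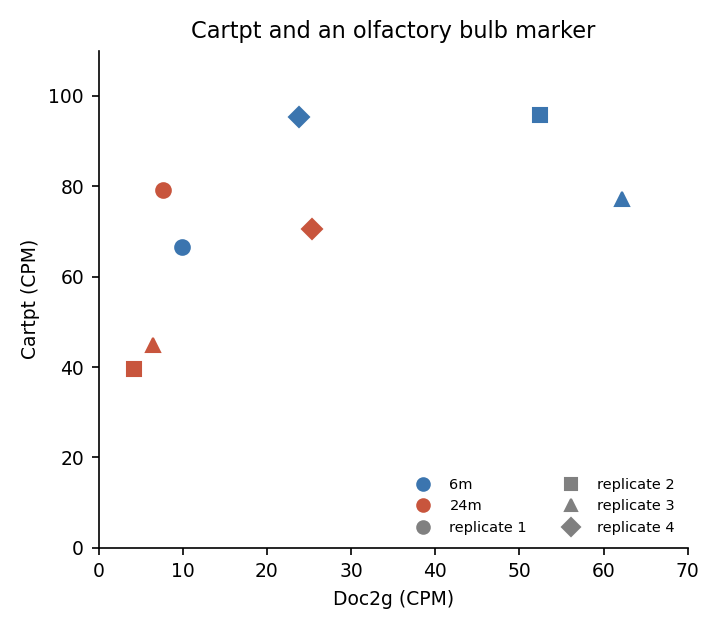
CPM of Cartpt against CPM of the olfactory bulb marker Doc2g in each of the 8 libraries, by age. The points at 39.5 and 44.8 CPM of Cartpt, both 24m, also have the lowest Doc2g levels.

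Pomc (ENSMUSG00000020660, chr12:4004944-4010642, plus strand), the precursor of the melanocortins that lower food intake and of ACTH, was near the depth limit. Its counts were 12, 4, 3 and 10 at 6m and 10, 9, 3 and 16 at 24m, so that 6 of the 8 libraries were above 3 counts. The mean CPM was 9.57 ± 5.02 (SD, n = 4) at 6m against 10.2 ± 4.86 (SD, n = 4) at 24m, with a log2FC of 0.07 (SE 0.423, edgeR adjusted p = 0.934). The 95% interval, from -0.80 to 0.94, leaves room for a change of either sign above the fold threshold, and the log2FC was 0.38 without 6m replicate 1 and -0.21 without 6m replicate 3. Pomc is also strongly expressed in the pituitary. Of 8 pituitary markers, 7 had 3 counts or fewer in every library. The summed level of the 8 was 2.46 to 9.04 CPM at 6m and 0 to 1.52 CPM at 24m. Gh, the growth hormone gene, reached 5 counts in a 6m library and had none at 24m, and Lhb, a luteinizing hormone subunit, reached 2 counts at 6m and 1 at 24m. The part of the pituitary in the Pomc values was not tested.

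Agrp (ENSMUSG00000005705, chr8:106293326-106364065, minus strand), the precursor of the feeding-promoting antagonist of melanocortin receptors, had 0, 2, 0 and 0 counts at 6m and 2, 1, 1 and 3 counts at 24m. Every library was at or under 3 counts, and no fold change is given. A change in Agrp was not detectable at this depth. Its canonical exons share 154 bases with Ctcf on the opposite strand, 154 with Gm5914 on the same strand and 582 with Gm38250 on the opposite strand, the last 2 being lncRNAs that the count table does not list.

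Pmch, the precursor of melanin-concentrating hormone, a feeding and sleep peptide of the lateral hypothalamus, lies at chr10:87926933-87928237 and had the lowest log2FC of the members. Its counts were 29, 23, 25 and 37 at 6m and 8, 15, 29 and 38 at 24m, or 35.7, 41.6, 31.1 and 46.5 CPM against 12.2, 15.6, 37.1 and 29.2 CPM. Replicates 1 and 2 at 24m were far below the 6m range, replicate 4 was just under it and replicate 3 was inside it. For Pmch the mean CPM was 38.7 ± 6.71 (SD, n = 4) at 6m against 23.5 ± 11.7 (SD, n = 4) at 24m, with an exact permutation p of 0.0857. In edgeR the log2FC was -0.67 (SE 0.258), with an adjusted p of 0.0614 and a 95% interval from -1.20 to -0.14. It was called without 24m replicate 3 (-0.91, edgeR adjusted p = 0.0238) or 24m replicate 4 (-0.82, edgeR adjusted p = 0.0431), and was closer to 0 at -0.51 without 24m replicate 1 (edgeR adjusted p = 0.121) or 24m replicate 2 (edgeR adjusted p = 0.214) and at -0.55 without 6m replicate 4 (edgeR adjusted p = 0.195). Parpbp, which covers all 750 exon bases of Pmch on the opposite strand, had no count in any library.

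Hcrt (ENSMUSG00000045471, chr11:100651895-100653762, minus strand), the precursor of the orexins, which keep the animal awake, is made by neighbouring but separate lateral hypothalamic neurons. Its counts were 21, 19, 27 and 40 at 6m and 18, 34, 21 and 39 at 24m, or 25.9, 34.4, 33.6 and 50.2 CPM against 27.4, 35.4, 26.9 and 29.9 CPM. All 24m libraries were inside the 6m range. For Hcrt the mean CPM was 36.01 ± 10.2 (SD, n = 4) at 6m against 29.9 ± 3.87 (SD, n = 4) at 24m, with a log2FC of -0.26 (SE 0.218, edgeR adjusted p = 0.434) and a 95% interval from -0.70 to 0.19. Without 6m replicate 4, the library with the highest level, it was -0.03 (edgeR adjusted p = 0.957).

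Trh (ENSMUSG00000005892, chr6:92219021-92221631, minus strand), the precursor of thyrotropin-releasing hormone, had 14, 20, 21 and 22 counts at 6m and 14, 15, 13 and 30 counts at 24m. As CPM these were 17.2, 36.2, 26.1 and 27.6 against 21.3, 15.6, 16.6 and 23.0. The 6m replicate 1 was among the 24m libraries, and the other 6m libraries were above all of them. For Trh the mean CPM was 26.8 ± 7.75 (SD, n = 4) at 6m against 19.2 ± 3.59 (SD, n = 4) at 24m, with a log2FC of -0.43 (SE 0.260, edgeR adjusted p = 0.249) and a 95% interval from -0.97 to 0.10. The log2FC was -0.28 without 6m replicate 2. Hcrt shares 275 exon bases and Trh 349 with opposite-strand lncRNAs that the count table does not list.

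Gal (ENSMUSG00000024907, chr19:3459912-3464881, minus strand), the precursor of galanin, which is made in the preoptic area, locus coeruleus and other sites, had 7, 7, 8 and 9 counts at 6m and 12, 11, 4 and 18 counts at 24m. As CPM these were 8.62, 12.7, 9.96 and 11.3 against 18.3, 11.4, 5.12 and 13.8. The 6m libraries lay close together and the 24m libraries on both sides of them. The mean CPM was 10.6 ± 1.74 (SD, n = 4) at 6m against 12.2 ± 5.49 (SD, n = 4) at 24m, and the log2FC of 0.21 (SE 0.371) had an adjusted p of 0.738 in edgeR and a 95% interval from -0.56 to 0.97. This log2FC was 0.03 without 24m replicate 1 and 0.43 without 24m replicate 3.

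**Figure D4:**
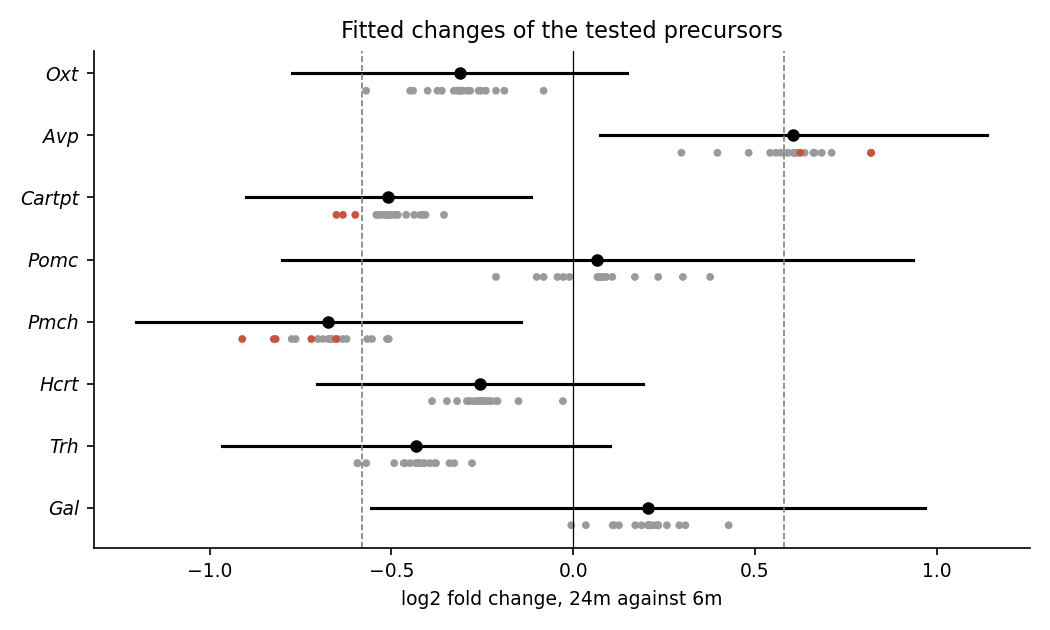
Fitted log2 fold change (24m over 6m) of the 8 tested members in edgeR, with black points and lines for the value and its 95% interval, grey points for alternative analyses, red points for those in which the gene passed both thresholds, and dashed lines at -0.58 and 0.58. Red points are present for Avp, Cartpt and Pmch.

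Per kilobase of the canonical transcript, the level at 6m was highest for Oxt, at 199 CPM per kb, which on that scale did not overlap with any other member. It was followed by Cartpt at 67.5, Hcrt at 60.9, Avp at 58.0 and Pmch at 51.6 CPM per kb, whose neighbours overlapped between libraries. A gap then separated Pmch from Trh at 19.1, Gal at 13.5 and Pomc at 9.50 CPM per kb, which again overlapped with their neighbours. At 24m the order was Oxt at 158, Avp at 83.4, Hcrt at 50.6, Cartpt at 47.2, Pmch at 31.4, Gal at 15.4, Trh at 13.6 and Pomc at 10.1 CPM per kb, and every pair of neighbours overlapped. Per kilobase, Avp stood below Cartpt and Hcrt at 6m and above both at 24m, by less than the spread between libraries. These orders and gaps depend on the division by length, and whether direct RNA counts scale with length was not tested. As CPM at 6m, Oxt (85.9 to 119) overlapped with Cartpt (66.5 to 95.8), and Pmch (31.1 to 46.5) with Trh (17.2 to 36.2). The mean CPM of Avp at 6m, 43.1, was above that of Hcrt, 36.01.

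At 24m, the counts of Oxt and Avp differed between libraries by more, relative to counting error, than those of most tested genes. The chi-square of the counts per degree of freedom, which is near 1 for counting error alone, had a median over tested genes of 1.28 at 24m and 0.945 at 6m. For Oxt it was 17.3 at 24m, reached by 1.25% of tested genes, and 1.79 at 6m, reached by 22.0%. For Avp it was 10.3 at 24m and 4.59 at 6m, reached by 2.59% and 2.05%. Cartpt had 5.50 at 24m and 1.87 at 6m, reached by 6.42% and 20.3%, and Pmch 4.49 and 0.920, reached by 9.003% and 51.1%. Hcrt, Trh and Pomc went the other way, with 0.434, 0.676 and 1.77 at 24m and 2.32, 1.56 and 2.02 at 6m. Gal had 1.85 at 24m and 0.198 at 6m. The difference in spread between the ages was not tested. At the same relative spread this chi-square is larger for genes with more counts, and the tested genes were not matched for level. The SD as a percentage of the mean CPM at 24m was 48.8% for Oxt and 42.35% for Avp. It was 49.6% for Pmch, 47.8% for Pomc and 45.1% for Gal, and 33.1% for Cartpt, 18.75% for Trh and 12.9% for Hcrt. Summed over the 9 members, the libraries had 319, 414, 307 and 385 CPM at 6m and 367, 247, 202 and 392 CPM at 24m, and replicates 2 and 3 at 24m were the lowest of all. Oxt, Avp and Cartpt together held 55.1% to 73.4% of these counts.

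Other neuropeptide precursors were tested in the same way. Of 34 genes, 16 were tested and 12 were at the count limit. In edgeR 0 were called higher and 1 lower, where 10.3% of all tested genes were called higher and 4.17% lower. With no fold asked for, 3 of the 16 had an adjusted p of 0.05 or less, where 21.7% of all tested genes had one. All 3 had lower values at 24m. Whether these counts differ from the shares over all tested genes was not tested. The median log2FC was -0.15, with 5 above 0, against a median near 0 for all tested genes. The gene called was Nmb, the precursor of neuromedin B, which fell from a mean CPM of 22.5 ± 7.40 (SD, n = 4) to 10.6 ± 4.77 (SD, n = 4), with a log2FC of -1.02 (SE 0.328, edgeR adjusted p = 0.0271). That call was lost without 6m replicate 3 (-0.75, edgeR adjusted p = 0.164), 24m replicate 2 (-0.82, edgeR adjusted p = 0.107) or 24m replicate 3 (-1.04, edgeR adjusted p = 0.0535). Nmb was also not called by DESeq2 on raw counts (DESeq2 adjusted p = 0.0670) or with library sizes alone (edgeR adjusted p = 0.0511). DESeq2 on quantile-normalized counts and limma-voom did call it. The others were Cck, the cholecystokinin precursor of cortical neurons, at -0.40 (edgeR adjusted p = 0.00228), and Sst, the somatostatin precursor, at -0.27 (edgeR adjusted p = 0.0283), both named after their values were seen. The summed level of the list, to which Cck and Sst gave the most counts, was 2740 to 3125 CPM at 6m and 2280 to 2642 CPM at 24m, without overlap, but overlapped without Cck and Sst, at 1003 to 1098 CPM and 892 to 1113 CPM.

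The machinery that makes peptides from these precursors was measured at widely different depths. Mean counts ran from 7.375 for Pcsk1 to 2693 for Pcsk1n. All 15 genes of precursor processing and dense-core granules were tested, 0 were called higher and 1 lower in edgeR, where 14.5% of all tested genes were called. When no fold was asked for, 4 had an adjusted p of 0.05 or less, where 21.7% of all tested genes had one, and all 4 had lower values at 24m. The median log2FC was -0.01, with 6 above 0. The gene called was Pam, the enzyme that amidates peptides such as oxytocin and vasopressin, which fell from a mean CPM of 36.6 ± 8.08 (SD, n = 4) to 23.26 ± 3.901 (SD, n = 4), a log2FC of -0.71 (SE 0.224, edgeR adjusted p = 0.0239). DESeq2 did not call it, and the call was lost without 6m replicate 1 (-0.56), 6m replicate 3 (-0.70), 24m replicate 2 (-0.69) or 24m replicate 4 (-0.59). The others, named after their values were seen, were Pcsk1n, which encodes proSAAS, an inhibitor of the convertase Pcsk1, at -0.38 (edgeR adjusted p = 0.00170), and the granins Scg2 at -0.39 (edgeR adjusted p = 0.0440) and Chga at -0.30 (edgeR adjusted p = 0.0396).

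The receptors and inactivating enzymes of these peptides were mostly too low to test. Of 16 genes, 2 passed the filter and 0 were called in edgeR, with 1 at an unadjusted p under 0.05, and 9 were at the count limit, among them Oxtr, Avpr1a and Hcrtr2. Mchr1, the receptor of melanin-concentrating hormone, had a log2FC of 0.76 (SE 0.343, edgeR adjusted p = 0.117), and its CPM did not overlap between the ages, as for 21.1% of tested genes. Mrap2, an accessory protein of melanocortin receptors, had a log2FC of 0.10.

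Of the hypothalamic transcription factors 2 were tested, Arnt2 and Pou3f2, and 1 was called higher, where 10.3% of all tested genes were. A count over 2 tested genes does not describe the list. Arnt2, which is needed for the development of oxytocin and vasopressin neurons but is expressed widely in brain, rose from a mean CPM of 5.55 ± 1.54 (SD, n = 4) to 24.7 ± 12.3 (SD, n = 4), a log2FC of 2.11 (SE 0.407, edgeR adjusted p = 0.00063). Its counts were 3 to 5 at 6m and 13 to 33 at 24m, so it passed the filter on mean count only through its 24m libraries. Pou3f2 had a log2FC of -0.95 (edgeR adjusted p = 0.103). The summed level of the 17 factors was 21.4 to 28.6 CPM at 6m and 35.4 to 65.3 CPM at 24m. Without Arnt2, a sum taken after its values were seen, as were the other sums without named genes, the ages overlapped, at 14.5 to 23.6 CPM at 6m and 12.5 to 26.9 CPM at 24m.

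Markers of other regions also differed between the ages. Where 10.3% of all tested genes were called higher at 24m, 3 of 6 tested cerebellar markers were, with a median log2FC of 0.74. They were Car8 at 0.72 (edgeR adjusted p = 0.00544), Cbln3 at 1.76 (edgeR adjusted p = 0.0111) and Cbln1 at 0.76 (edgeR adjusted p = 0.0125). Cbln3 had 1 to 4 counts at 6m and 5 to 17 at 24m, so it passed the filter on mean count only through its 24m libraries. Cbln1 was lost without 6m replicate 2 (0.57) or 24m replicate 2 (0.68), and DESeq2 did not call it. Cbln3 was not called by DESeq2 on quantile-normalized counts or by limma-voom. Of cortical markers 2 of 4 tested were higher, Slc17a7 at 0.58 (edgeR adjusted p = 0.000395) and Tbr1 at 0.81 (edgeR adjusted p = 0.0403). The other 2, Neurod6 and Cux2, named after their values were seen, had log2FC of 0.001 and 0.10. The median log2FC of the cortical list was 0.34. Slc17a7 was just past the fold threshold and fell under it without 6m replicate 2 (0.54), 24m replicate 2 (0.55) or 24m replicate 3 (0.48). Tbr1 was lost, by adjusted p, without any 1 of 6 of the 8 libraries, at log2FC of 0.64 to 0.80, the exceptions being 6m replicate 2 and 24m replicate 1. It was also not called by DESeq2, by limma-voom or with a replicate block. The thalamic, ependymal and choroid plexus lists had 3, 4 and 2 tested genes and median log2FC of -0.17, -0.14 and -0.47. In edgeR 0 of them were called. By highest mean count, the thalamic genes Prkcd and Ramp3 had log2FC of -0.32 and -0.17, the ependymal genes Foxj1 and Rarres2 0.27 and -0.21, and the choroid plexus genes Ttr and Folr1 -0.10 and -0.83, of which Folr1 alone had an unadjusted p under 0.05 (edgeR adjusted p = 0.0537). The share of the hemisphere taken by each region was not measured, and its part in the CPM of the members was not tested.

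As a description without a test, the genes whose log2 CPM followed a member most closely over the 8 libraries were found by Pearson's r for the members with a mean count over 20. For Oxt they were Fancg (r = 0.970), Alg3 (r = 0.964) and Tasor2 (r = 0.956), and for Avp Anxa3 (r = 0.954), Cpsf6 (r = 0.942) and Cmpk1 (r = 0.940). For Cartpt they were Tubgcp2 (r = 0.983), Ttc27 (r = 0.966) and Efemp2 (r = 0.949), and for Pmch Sat1 (r = 0.964), Ankrd50 (r = 0.957) and Med31 (r = 0.954). For Hcrt they were Plcd4 (r = 0.947) and, at the same r of 0.914, Zc3h11a and ENSMUSG00000116275, which has the same counts as Zc3h11a. None of these genes was called changed. The libraries share depth and age, and each r was picked as among the highest of 9375 genes over only 8 points.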

How the data were processed

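Per the labels and methods, total RNA from brain hemispheres of 8 mice was sequenced on a MinION. The methods describe direct RNA libraries, whereas the labels name a NEBNext polyA+ kit, and the methods were followed here. The authors aligned reads with minimap2 2.24 to GRCm39, counted them per gene with featureCounts and deposited raw gene counts. Strand, overlap and multi-mapping settings are not given in the sources used here. Of 22430 genes, 22281 were matched by identifier to GENCODE mouse release 39 on the same build. The counts were tested with edgeR 4.0.16 in R 4.3.3 (TMM, quasi-likelihood, mean count over 5), with age as the only term. CPM used TMM library sizes, correlations a prior count of 2. Exact permutation tests used SciPy 1.17.1, over all 70 assignments of libraries, and could not go below p = 0.029. Transcripts were compared with BLAST+ 2.17.0. Scripts were tested on simulated data. Alternatives were DESeq2 1.42.0, limma 3.58.1 (voom), other scalings and filters, a replicate block and each library left out. Nothing states that libraries of an age share a litter or batch, and each is a separate mouse. Members and lists were chosen with earlier results of these data known. All members are named; from each list, the genes called (at most 5) or, with none, those with the highest mean count, with a few low genes added after their counts were seen; and the 3 genes most alike to each member with a mean count over 20.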

Additional observations from a re-analysis of the deposited data

Results flagged for a closer look

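The summed level of the 17 hypothalamic transcription factors at 6m had a high library, replicate 3, at 28.6 CPM, whose gap to the nearest of the other 3 libraries took up 0.889 of the range of the group, more than Dixon's 95% limit for 4 libraries. It was 1 of 44 groups of values examined in this way, where chance gives about 2.2.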

How the results depend on the processing

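The count of changed members, 0 in edgeR, was 1 with limma-voom on quantile-normalized values (Pmch), 2 without a filter on low counts (Avp and Pmch), 1 with a replicate block (Pmch) and from 0 to 2 with each library left out. The count of changed genes, 1359, was 834 and 819 with DESeq2 on the raw counts and after quantile normalization, 1308 with the replicate block, and from 1001 to 1596 with each library left out. The cause of these differences was not tested. The Avp to Oxt difference was from 0.641 to 1.136 on the log2 scale with each library left out, at p = 0.0571, the smallest exact permutation p of 3 against 4 libraries. Same-numbered libraries of the ages did not deviate together (r from -0.16 to 0.065), so the numbers are not read as pairs. The log2FC kept its sign in all alternatives run for Oxt, Avp, Cartpt, Pmch, Hcrt and Trh, but not for Pomc (-0.21 to 0.38) and Gal (-0.01 to 0.43). With 3 to 30 counts a library, the values of Pomc, Trh and Gal are limited by depth. Of the other genes named, Nmb, Pam, Tbr1, Cbln1, Cbln3, Doc2g and Slc17a7 each lost their call in some alternative.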
